A study of Mus musculus with 2 samples.

Results

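The genes described here encode the respiratory chain and ATP synthase of mouse mitochondria. They were taken by symbol from the 32285 genes of the deposited matrices: the mt- genes and the genes whose symbols begin with the stems of complex I (Nduf subunits), complex III (Uqcr), complex IV (Cox4 to Cox8) and complex V (Atp5). The rule found 94 genes, of which 13 lie in mitochondrial DNA and 81 in the nucleus. The nuclear members comprised 36 for complex I, 8 for complex III, 20 for complex IV (with Ndufa4 and Ndufa4l2, which were counted there) and 17 for complex V. The mitochondrial members comprised 7, 1, 3 and 2 for the same complexes. All 94 were accounted for: Cox7b2 and Cox8c had 0 UMIs in both libraries, and with Cox8b these made 3 members under 20 UMIs. A UMI (unique molecular identifier) stands for 1 captured RNA molecule.

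The study profiled single cells from 2 tissues with 10x Genomics 3′ chemistry. One library, named WT, came from the normal duodenum of mice with the genotype Lkb1+/+;Myh11-Cre/ERT2. The other, named Lkb1_Het, came from polyps, and the genotype of its mice was Lkb1flox/+;Myh11-Cre/ERT2. Each pooled 3 mice whose cells cannot be told apart in the files. Both libraries therefore carried the inducible Cre recombinase, driven by the promoter of the smooth muscle gene Myh11, and both are labelled as duodenum, although the site of the polyps in the gut is not settled by the labels and the markers found. There was 1 library per group, so library, tissue and genotype cannot be told apart and no test between groups was possible. Every interval below is a 95% interval for counting error only.

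Complexes I, III and IV pass electrons from NADH to oxygen and pump protons across the inner mitochondrial membrane, and complex V, the ATP synthase, lets them back to make ATP. Each of these complexes holds some subunits made inside the mitochondrion from mitochondrial DNA (in complex V, parts of the membrane-bound proton channel), while most subunits are nuclear gene products that are imported. Some complex IV subunits exist as paired isoforms, one found in most tissues and another known from heart and skeletal muscle, lung or testis. Absorptive enterocytes, which take up nutrients on the villus, are rich in mitochondria, whereas mucus-secreting gland cells and lymphocytes are known for lower oxidative capacity.

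NRF1 and YY1 are transcription factors known to bind promoters of many nuclear respiratory genes, and their motifs were looked for because they are the letters that these members might share. RefSeq promoter windows of 300 bases, from 250 before to 50 after the start, were held for 66 of the 81 nuclear members on GRCm38.p6. The NRF1 motif GCGCATGCGC, which reads the same on both strands, lay in 5 members (7.58%) and in 1.07% of 27025 genes. The YY1 motif AAGATGGCG on either strand lay in 7 members (10.6%) and in 1.64% of all genes, and the ETS motif CCGGAAGT lay in 5 members (7.58%) and in 4.31% of all genes. A match is only a match of letters, and none of the 3 spelled motifs contains another. The 5 stretches with the NRF1 motif in capitals, each 30 bases long and read on the gene's strand, were as follows.
Atp5k at chr5:108434430-108434459, minus strand: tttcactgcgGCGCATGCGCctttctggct
Cox6a1 at chr5:115349101-115349130, minus strand: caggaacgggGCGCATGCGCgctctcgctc
Uqcrc1 at chr9:108936668-108936697, plus strand: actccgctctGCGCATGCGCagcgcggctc
Atp5g2 at chr15:102671070-102671099, minus strand: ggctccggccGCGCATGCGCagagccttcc
Ndufa11 at chr17:56717692-56717721, plus strand: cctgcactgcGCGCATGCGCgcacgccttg

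The YY1 motif lay within the first 50 bases after the start in 6 of its 7 members. By complex, it lay in 5 of the 32 matched members of complex I (15.6%) and 2 of the 15 of complex V (13.3%). It lay in 0 of 5 for complex III and 0 of 14 for complex IV. The 7 stretches, with the motif in capitals, were the following.
Ndufc1 at chr3:51408914-51408943, minus strand: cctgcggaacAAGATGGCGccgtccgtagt
Atp5j2 at chr5:145191499-145191528, minus strand: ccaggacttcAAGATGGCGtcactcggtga
Ndufa9 at chr6:126849096-126849125, minus strand: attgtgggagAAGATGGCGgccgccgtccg
Ndufs7 at chr10:80249463-80249492, plus strand: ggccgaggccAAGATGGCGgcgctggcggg
Ndufs6 at chr13:73328433-73328462, minus strand: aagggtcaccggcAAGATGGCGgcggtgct
Ndufs4 at chr13:114388045-114388074, minus strand: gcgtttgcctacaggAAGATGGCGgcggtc
Atp5j at chr16:84835045-84835074, minus strand: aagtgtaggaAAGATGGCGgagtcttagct

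The WT matrix held 9950 barcodes and 39222238 UMIs and the Lkb1_Het matrix 14327 barcodes and 63566462 UMIs, with 44 barcodes in common. With at least 500 UMIs and 250 genes, 7801 and 11913 barcodes were kept. The mt- genes took 25.5% of the UMIs of these barcodes in WT and 10.7% in Lkb1_Het, with medians over barcodes of 37.1% and 7.04%. Barcodes with at most 25% mt- UMIs numbered 3252 and 8460, and comparisons between the libraries used these unless stated otherwise. Barcodes were placed in classes by the UMIs of marker genes. Acinar pancreas marker RNA took 3.83% of the UMIs outside the mt- genes in WT and 0.134% in Lkb1_Het, and hemoglobin RNA 0.329% and 0.554%. The part of such free RNA in the levels below was not tested.

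The 2 tissues differed in which epithelial cells they held. In WT, 395 of 1724 epithelial barcodes were enterocyte-like, and these 395 carried 63.2% of the epithelial nuclear member UMIs against 50.0% of all epithelial UMIs. In Lkb1_Het, 12 of 5593 were enterocyte-like, while surface mucous-like barcodes (1156) carried 38.5% and Brunner or mucous neck gland-like barcodes (1528) carried 24.2% of those UMIs. Surface mucous and mucous neck markers are known from stomach and Brunner gland markers from duodenum, so a difference in gut site and one between polyp and normal tissue cannot be told apart in the ratios below. A further 1089 WT and 2577 Lkb1_Het epithelial barcodes had no leading marker list and are called other epithelial.

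Levels are UMIs per 1000000 UMIs of the class (CPM). Summed over the 81 nuclear members, the highest level of the classes with at least 20 barcodes was that of WT enterocyte-like barcodes, 72448 CPM, against 46739 CPM in the crypt-like barcodes of the same library. Epithelial barcodes as a whole stood at 57315 CPM in WT and 38757 CPM in Lkb1_Het, a ratio of polyp over normal of 0.676 (interval 0.674 to 0.678). Without the enterocyte-like barcodes, a comparison added after the data were seen, the levels were 42204 and 38756 CPM and the ratio 0.918 (0.915 to 0.922). The ratio thus lay nearer to 1 once the barcodes called enterocyte-like were left out of both libraries. The other epithelial barcodes stayed in, and the part of enterocyte RNA in them was not tested.

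Other classes did not share one direction in the nuclear sum. Brunner or mucous neck gland-like barcodes stood at 19631 CPM in WT (33 barcodes) and 33246 CPM in Lkb1_Het (ratio 1.69), and surface mucous-like barcodes at 35852 (25 barcodes, median 693 UMIs) and 43091 CPM (ratio 1.20). Plasma cells stood at 10386 and 15352 CPM (ratio 1.48) and fibroblasts at 17736 and 23132 CPM (ratio 1.30). T or innate lymphoid barcodes stood at 25849 and 25255 CPM (ratio 0.977), macrophages or monocytes at 21746 and 22332 CPM (ratio 1.03), and enteroendocrine barcodes at 25847 and 25235 CPM (ratio 0.976). Smooth muscle or pericyte barcodes, the cells in which Myh11 is known to be active, stood at 48849 CPM in WT and 34068 CPM in Lkb1_Het (ratio 0.697), from only 12 and 36 barcodes.

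**Figure D1:**
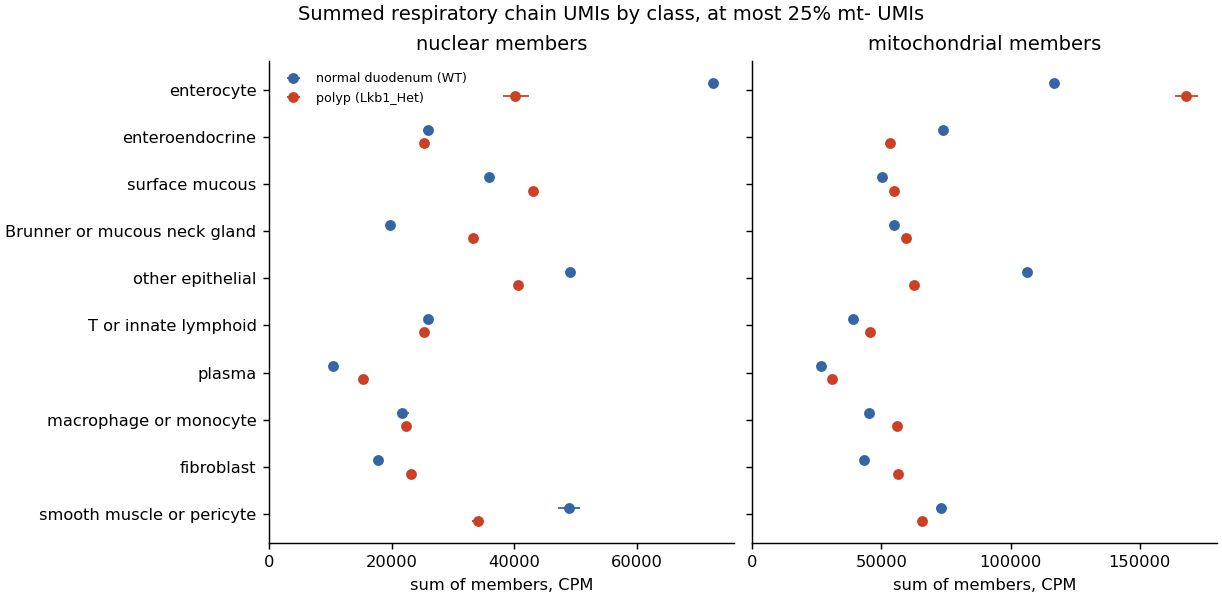
Summed level of the nuclear members (left) and of the mitochondrial members (right) per class, in CPM on a linear axis, for barcodes with at most 25% mt- UMIs; bars are 95% Poisson intervals and are often smaller than the points. WT enterocyte-like barcodes have the highest nuclear sum, 72448 CPM, while the red Lkb1_Het enterocyte-like point rests on 12 barcodes.

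A member was called higher or lower when the ratio passed 1.5-fold, its interval was clear of 1, and at least 20 UMIs were counted over both libraries. In epithelial barcodes 0 of 75 nuclear members tested were called higher in the polyp library and 41 were called lower. Of all 14221 genes tested there, 26.7% were called higher and 19.6% lower. The median log2 ratio of the nuclear members was -0.61, against 0.09 for all genes. Counted over the UMIs outside the mt- genes, 48 were lower, and centred on the median gene, 49. Without enterocyte-like barcodes 7 of 75 were lower and 0 higher, where 22.8% of all genes were lower and 18.1% higher. Over all epithelial barcodes, a 2-fold limit left 7 lower. Lifting the limit on the mt- share left 8 lower and 3 higher, against 41 and 0 with it. No share of all genes is at hand for these last 2 settings or the 2 scales above. The same holds for alternatives below that stand without one.

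Complex I takes electrons from NADH, and 19 of its 36 nuclear members were called lower in polyp epithelium. Ndufa10, an accessory subunit, stood at 229.8 CPM in WT and 108.0 CPM in Lkb1_Het (ratio 0.470). Core subunits, among them Ndufs1 (59.2 and 31.6 CPM), Ndufv1 (165.1 and 96.9 CPM) and Ndufv2 (347.6 and 198.3 CPM), also lay below the limit. The accessory subunits Ndufa7 (485.7 and 460.1 CPM), Ndufb2 (314.0 and 293.8 CPM) and Ndufs4 (234.6 and 226.7 CPM) lay close to equal levels. The most abundant nuclear complex I member by UMI in both libraries, Ndufb9, stood at 874.4 and 570.5 CPM in epithelium.

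Complex III moves electrons from quinol to cytochrome c, and 5 of its 8 nuclear members were called lower. Uqcrq, which with Uqcrc1 and Uqcrc2 was among the lowest ratios of all nuclear members, stood at 1550 CPM in WT and 616.8 CPM in Lkb1_Het (ratio 0.398, 0.391 to 0.405). The core proteins Uqcrc1 (377.8 and 150.9 CPM, ratio 0.399) and Uqcrc2 (333.3 and 142.6 CPM, ratio 0.428) and the Rieske iron-sulfur protein Uqcrfs1 (449.0 and 205.4 CPM, ratio 0.458) lay beside it. Uqcrb, which binds quinone, stood at 1058 CPM in both libraries, and Uqcrh, the hinge protein, at 1262 and 1163 CPM. Members of the same complex thus spanned ratios from 0.398 to 0.999. Uqcrc1, Uqcrc2, Uqcrq and Ndufa10 remained lower without the enterocyte-like barcodes, at ratios of 0.590, 0.552, 0.551 and 0.578. Whether enterocyte RNA in the remaining WT barcodes has a part in these ratios was not tested.

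Complex IV reduces oxygen to water, and 7 of its 14 nuclear members tested were called lower. Cox8a, the most abundant nuclear complex IV member, stood at 2380 CPM in WT and 2025 CPM in Lkb1_Het (ratio 0.851), Cox4i1 at 1797 and 1269 CPM, and Cox7c at 2346 and 1375 CPM. Cox7b stood at 1255 and 661.6 CPM (ratio 0.527). Cox7a2l, which takes part in joining complexes III and IV, was one of 2 nuclear members with at least 50 UMIs and a ratio whose interval lay above 1: 190.6 and 233.7 CPM (ratio 1.23, 1.17 to 1.28), inside 1.5-fold. The largest difference of any member was in Cox7a1, at 228.6 CPM in WT and 2.73 CPM in Lkb1_Het (ratio 0.0119, 0.00988 to 0.0143). Without enterocyte-like barcodes it stood at 36.6 and 2.53 CPM (ratio 0.0691). The WT barcodes that remained include other epithelial ones. In these, Cox7a1 took 5.12% of its UMIs and those of its common partner Cox7a2 together, against 0.825% in crypt-like barcodes. The part of enterocyte RNA in them was not tested.

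Complex V makes ATP, and 10 of its 17 nuclear members were called lower. The catalytic subunit Atp5b stood at 942.3 CPM in WT and 500.4 CPM in Lkb1_Het (ratio 0.531), and its partner Atp5a1 at 750.3 and 447.4 CPM (ratio 0.596). Atp5e, the most abundant nuclear member of the complex, stood at 1555 and 1231 CPM (ratio 0.791). The 3 genes that encode the same c subunit of the rotor differed: Atp5g1 (1406 and 827.2 CPM) and Atp5g3 (1034 and 599.8 CPM) were called lower, and Atp5g2 stood at 754.1 and 947.6 CPM (ratio 1.26, 1.23 to 1.28), the highest ratio of the tested members. Of the promoters printed above with the NRF1 motif, Uqcrc1 and Atp5g2 lay at opposite ends of the epithelial ratios.

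**Figure D2:**
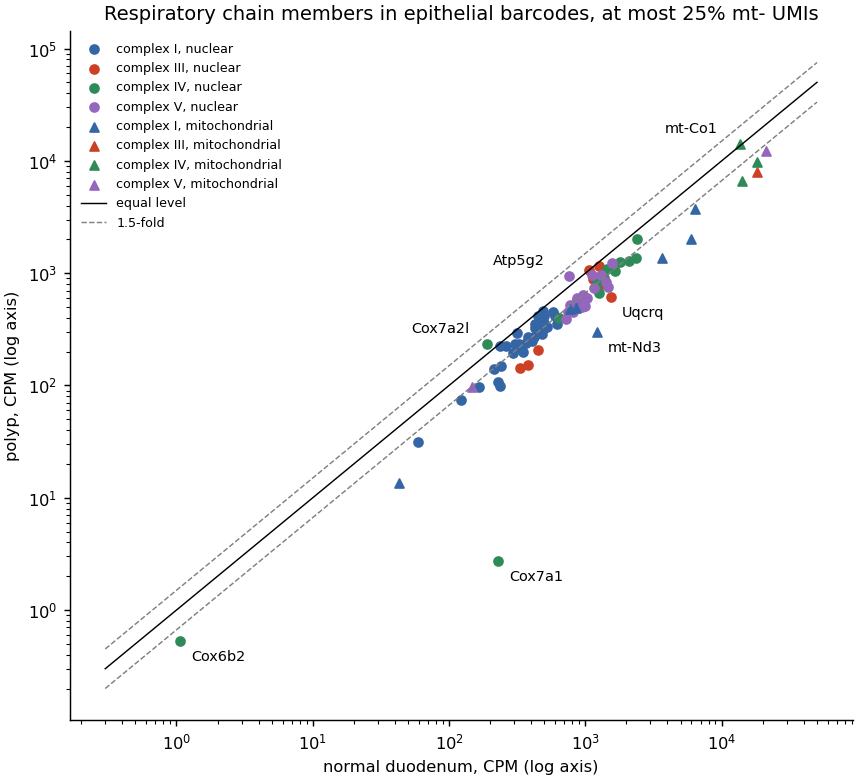
Level of each tested member in epithelial barcodes of the normal library (x axis) and the polyp library (y axis), in CPM on log axes; circles are nuclear and triangles mitochondrial members, the solid line marks equal levels and dashed lines 1.5-fold. Most points lie under the solid line, Cox7a1 lies far below the rest at 228.6 and 2.73 CPM, and Atp5g2, Cox7a2l and mt-Co1 lie above it.

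In gland-like barcodes 50 of 74 nuclear members were called higher in the polyp library and 1 lower, where 14.8% of all genes were higher and 3.68% lower. The median log2 ratio was 0.73 for the members and 0.36 for all genes, and centred on the median gene 15 were higher. Cox5a, a complex IV subunit, stood at 274.6 and 760.3 CPM (ratio 2.77, 2.33 to 3.32), Atp5o at 160.9 and 378.1 CPM and Cox6c at 525.6 and 1104 CPM. By complex, 18 of 36, 6 of 8, 12 of 13 and 14 of 17 were higher for I, III, IV and V. A 2-fold limit left 10 higher. In surface mucous-like barcodes 7 of 74 were higher and 1 lower, beside 8.27% and 4.89% of all genes. The highest ratio among those named by the rule was that of Ndufa7, at 261.6 and 471.8 CPM (ratio 1.80, 1.43 to 2.31), and Atp5g2 stood at 593.3 and 994.8 CPM (ratio 1.68, 1.44 to 1.97). As means of per-barcode CPM, which weigh each barcode equally, 38 were higher and 4 lower in this class. Of its 25 WT barcodes, 17 had over 10% ribosomal RNA repeat UMIs and held 4.12% of the class's UMIs, so the WT sum rests on the other 8.

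In enteroendocrine barcodes 5 of 73 nuclear members were higher and 11 lower, where 9.11% and 15.8% of all genes were. Atp5g2 stood at 346.8 and 656.0 CPM (ratio 1.89), Ndufc2 at 160.5 and 345.2 CPM, and Cox7a2l, in the other direction from epithelium as a whole, at 393.4 and 193.7 CPM (ratio 0.492, 0.378 to 0.648). Centred on the median gene, 8 were higher and 8 lower. These values rest on 27 WT barcodes.

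Among cells outside the epithelium, T or innate lymphoid barcodes showed the fewest differences. There 0 of 74 nuclear members were higher and 3 lower (Ndufa10, Uqcrc2 and Cox7a1), where 15.9% of all genes were higher and 15.3% lower. The Cox7a1 call rests on 26 UMIs in WT and 2 in Lkb1_Het. At any mt- share, 98.4% of the WT Cox7a1 UMIs lay in epithelial barcodes, and the part of free RNA in this call was not tested. Ndufa10 stood at 110.8 and 51.7 CPM (ratio 0.466) and Uqcrc2 at 121.8 and 75.7 CPM (ratio 0.621). Atp5g2 stood at 529.0 and 762.4 CPM (ratio 1.44, 1.32 to 1.57), inside 1.5-fold. The epithelial and lymphoid classes come from the same 2 libraries, so these ratios are not independent of each other.

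In plasma cells 35 of 74 nuclear members were higher and 1 lower, beside 38.4% and 3.32% of all genes. The median log2 ratio was 0.58 for the members and 0.61 for all genes, and centred on the median gene 1 was higher and 4 lower, so the count of higher members was not set apart from the other genes of these cells. Ndufa4, a complex IV subunit, stood at 311.7 and 658.3 CPM and Cox7a2l at 24.9 and 74.3 CPM (ratio 2.99). In fibroblasts 15 of 73 were higher and 0 lower (9.88% and 10.7% of all genes), with Ndufc2 at 95.4 and 285.2 CPM and Atp5h at 366.6 and 682.6 CPM. In macrophages or monocytes 4 of 72 were higher and 1 lower (8.06% and 5.57% of all genes), with Uqcr11 at 205.3 and 419.4 CPM, from 23 WT barcodes.

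The mitochondrial members as a sum stood at 104404 CPM in WT epithelium and 58929 CPM in Lkb1_Het (ratio 0.564, 0.563 to 0.566). Without enterocyte-like barcodes the sums were 92030 and 58845 CPM (ratio 0.639), so leaving these cells out moved the mitochondrial ratio less than the nuclear one. By complex, the epithelial ratio was 0.445 for the 7 complex I genes, 0.434 for mt-Cytb of complex III, 0.659 for complex IV and 0.576 for complex V. In epithelium 11 of 13 were called lower and 0 higher, with the exceptions mt-Co1 and mt-Atp8. Only barcodes with at most 25% mt- UMIs entered these values, and at a limit of 10% 7 were lower.

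The sum lay higher in the polyp library in classes outside the epithelium: the ratio was 1.17 in T or innate lymphoid barcodes, 1.17 in plasma cells, 1.24 in macrophages or monocytes and 1.31 in fibroblasts. It was 0.720 in enteroendocrine barcodes, 1.10 in surface mucous-like and 1.08 in gland-like barcodes. Calls were few in these classes: mt-Co1 was the 1 member called in T or innate lymphoid barcodes, and mt-Co1, mt-Nd4l and mt-Nd5 were the 3 called higher of 12 tested in both fibroblasts and macrophages or monocytes. Enteroendocrine barcodes had 5 called lower. Gland-like and plasma barcodes each had 1 called higher and 1 lower, and surface mucous-like barcodes had mt-Nd3 lower. These ratios and calls also rest on barcodes with at most 25% mt- UMIs, so the limit caps the quantity measured. Of the gland-like barcodes, 35.3% in WT and 21.6% in Lkb1_Het lay above it. With no limit, more mt- members were called lower in enteroendocrine, surface mucous-like and gland-like barcodes. More were then called higher in lymphoid and macrophage barcodes, as counted in the last section.

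Single mitochondrial members departed from their sum, with mt-Co1, which encodes the catalytic subunit of complex IV, apart from the rest. In epithelium it stood at 13707 CPM in WT and 14022 CPM in Lkb1_Het (ratio 1.02, 1.02 to 1.03), while mt-Co2 stood at 18256 and 9696 CPM and mt-Co3 at 14022 and 6603 CPM. The complex I genes ranged from mt-Nd3 (1209 and 298.8 CPM, ratio 0.247), mt-Nd6 (42.7 and 13.6 CPM), mt-Nd1 (5959 and 2008 CPM) and mt-Nd2 (3642 and 1376 CPM) to mt-Nd4 (6345 and 3712 CPM), mt-Nd5 (858.2 and 492.7 CPM) and mt-Nd4l (771.1 and 481.1 CPM, ratio 0.624). mt-Cytb stood at 18168 and 7876 CPM, mt-Atp6 at 21278 and 12253 CPM and mt-Atp8 at 146.1 and 97.5 CPM. mt-Atp8 and mt-Atp6 overlap by 43 bases, mt-Nd4l and mt-Nd4 by 7, mt-Atp6 and mt-Co3 by 1, and mt-Nd5 and mt-Nd6 by 14 on opposite strands, and how their shared reads were counted is uncertain.

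Expressed as a share of all mt- UMIs of a class, which does not depend on how much mitochondrial RNA a class has, the make-up differed between the libraries the same way in several members. The enteroendocrine, surface mucous-like and gland-like classes are parts of the epithelial class, so only 5 of the 8 classes compared are separate sets of barcodes. The share of mt-Co1 was higher in the polyp library in 8 of 8 classes, from 13.1% to 23.8% in epithelium, 11.8% to 19.7% in plasma cells, 16.7% to 21.8% in T or innate lymphoid barcodes and, with the smallest difference, 20.6% to 23.6% in surface mucous-like barcodes. The share of mt-Nd4l was also higher in 8 of 8. Those of mt-Nd1, mt-Nd2, mt-Nd3 and mt-Co3 were lower in 8 of 8, and that of mt-Cytb in 6 of 8, with 17.4% and 13.4% in epithelium. The mt-Co1 difference was thus present in epithelial, lymphoid and stromal classes alike. The classes share the 2 libraries and any step that acted on a whole library, and the part of library preparation in this was not tested.

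**Figure D3:**
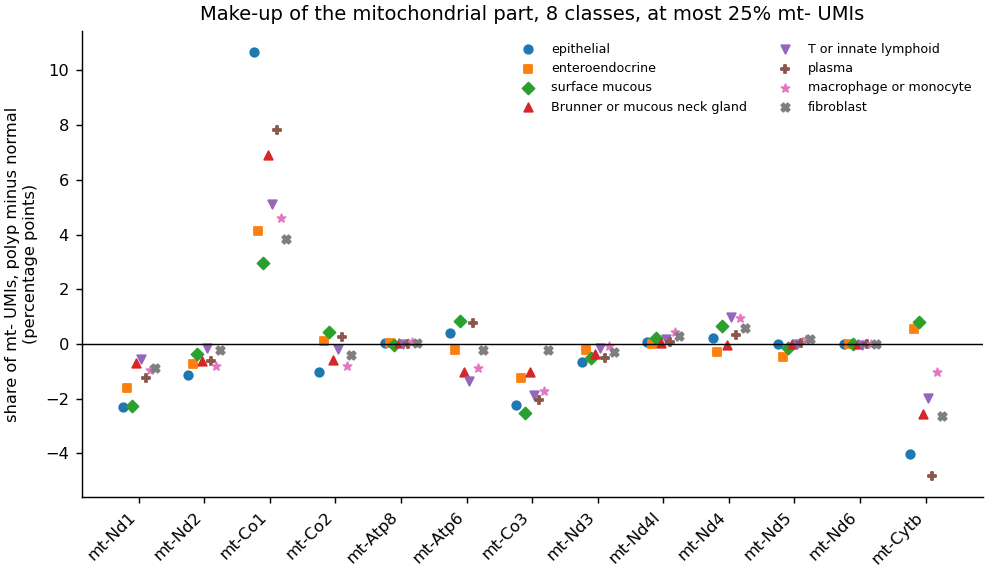
Share of each mitochondrial gene among the mt- UMIs of a class, polyp minus normal, in percentage points, for 8 classes (3 of them parts of the epithelial class) with at most 25% mt- UMIs per barcode. All 8 points for mt-Co1 lie above 0, with epithelium highest at 10.7 points, and all 8 for mt-Nd1, mt-Nd2, mt-Nd3 and mt-Co3 lie below 0.

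Isoforms of complex IV known from other tissues were unevenly spread over the classes. Cox7a1, known as the heart and muscle form of subunit 7a, stood at 420.9 CPM in WT enterocyte-like barcodes (2953 UMIs, interval 405.8 to 436.3), 55.5 CPM in WT other epithelial, 13.4 CPM in goblet-like, 7.67 CPM in crypt-like and 9.21 CPM in T or innate lymphoid barcodes. The enterocyte-like barcodes held 90.5% of the Cox7a1 UMIs of WT, and the lymphoid level shows what a class not known for the gene carried. In Lkb1_Het the 12 enterocyte-like barcodes held 9 UMIs, or 257.7 CPM (117.9 to 489.3), and other epithelial barcodes stood at 3.34 CPM. The 2 enterocyte-like intervals overlapped, so a difference in Cox7a1 within enterocyte-like barcodes was not detectable at this depth. Of the UMIs of Cox7a1 and its common partner Cox7a2 together, Cox7a1 took 18.4% in WT enterocyte-like barcodes (17.8 to 19.0), 0.825% in crypt-like barcodes, 14.2% in WT epithelium and 0.299% in Lkb1_Het epithelium. Above 25% mt- UMIs its share in WT enterocyte-like barcodes was 21.4%.

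The sequences before the starts of Cox7a1 and Cox7a2 are shown because Cox7a1 had the largest epithelial difference between the libraries of any member. From 250 to 51 bases before the start, Cox7a1 holds 2 CG pairs and Cox7a2 holds 9. The matched nuclear members have a median of 10.0 and all genes a median of 4. At most 2 are held by 4 of the 66 matched members and by 36.9% of all genes, so the count of Cox7a1 is common among genes at large. None of the 3 motifs lies in either window. The CG pairs are in capitals.
Cox7a1 at chr7:30183921-30184120, plus strand: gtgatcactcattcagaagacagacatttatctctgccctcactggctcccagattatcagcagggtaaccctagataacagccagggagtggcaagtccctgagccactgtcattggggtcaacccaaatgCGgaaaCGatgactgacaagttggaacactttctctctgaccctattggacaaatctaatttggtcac
Cox7a2 at chr9:79759904-79760103, minus strand: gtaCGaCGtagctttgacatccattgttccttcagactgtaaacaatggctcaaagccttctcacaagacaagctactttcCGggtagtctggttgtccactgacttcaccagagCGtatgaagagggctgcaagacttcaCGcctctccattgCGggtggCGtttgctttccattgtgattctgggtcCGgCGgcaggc

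Cox4i2 and Ndufa4l2, the hypoxia-responsive partners of Cox4i1 and Ndufa4, had their highest levels in smooth muscle or pericyte barcodes. Cox4i2 stood there at 342.0 CPM in WT (20 UMIs in 12 barcodes) and 92.5 CPM in Lkb1_Het (14 UMIs in 36 barcodes), and Ndufa4l2 at 495.8 CPM (29 UMIs) and 138.7 CPM (21 UMIs). The intervals of the 2 libraries did not overlap for either gene, but 12 WT barcodes carry the higher values, and the part of the mix of muscle cells and pericytes was not tested. In WT T or innate lymphoid barcodes both genes had 0 UMIs, where 3 UMIs would be 1.06 CPM. A further 23 Cox4i2 UMIs lay in 20 WT plasma barcodes (8.41 CPM).

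Cox6b2, known from testis, was found at low counts in several classes. In WT it stood at 35.2 CPM in fibroblasts (7 UMIs, 14.1 to 72.4), 45.6 CPM in macrophages or monocytes (4 UMIs, 12.4 to 116.8), 34.2 CPM in smooth muscle or pericyte barcodes (2 UMIs) and 1.07 CPM in epithelium (15 UMIs). In Lkb1_Het it stood at 58.9 CPM in fibroblasts (32 UMIs, 40.3 to 83.1), 4.68 CPM in macrophages or monocytes (3 UMIs), 33.0 CPM in smooth muscle or pericyte barcodes (5 UMIs) and 0.527 CPM in epithelium (24 UMIs). Its WT levels outside the epithelium cannot be ordered from so few UMIs. Of 47 Cox6a2 UMIs in WT at any mt- share, 21 lay in 1 barcode of the dendritic class, 13 in 12 epithelial barcodes and 6 in 1 unclassified barcode. Cox8b had 8 UMIs, all in Lkb1_Het.

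**Figure D4:**
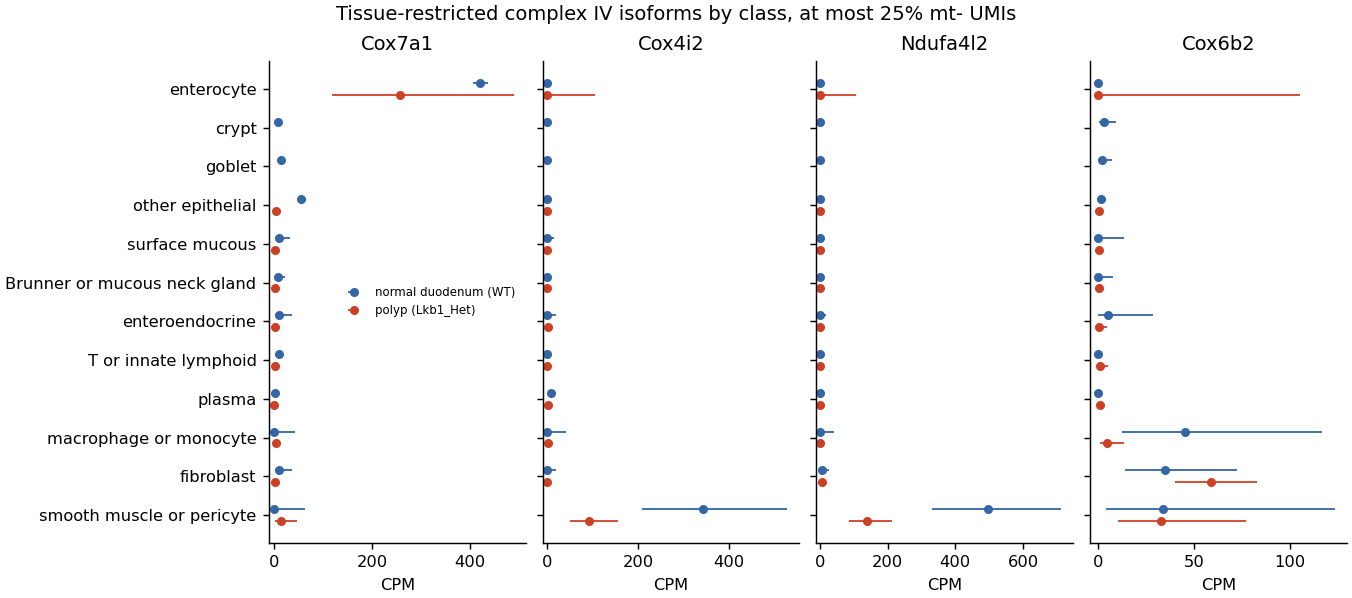
Level of 4 tissue-restricted complex IV isoforms by class, in CPM on linear axes that differ between panels, with 95% Poisson intervals, for barcodes with at most 25% mt- UMIs. Cox7a1 is high in the enterocyte-like class (420.9 CPM in WT), Cox4i2 and Ndufa4l2 in smooth muscle or pericyte barcodes, and Cox6b2 in fibroblasts, macrophages or monocytes and smooth muscle or pericyte barcodes, with wide intervals.

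The 25% line divided the libraries unequally. Above it lay 58.3% of the kept WT barcodes and 29.0% of those of Lkb1_Het, and among epithelial barcodes 70.8% (69.6 to 71.9) and 31.8% (30.8 to 32.9). In WT, 73.1% of enterocyte-like barcodes were above it, 73.3% of other epithelial, 46.7% of Paneth-like, 29.6% of crypt-like and 29.3% of goblet-like, against 3.25% of T or innate lymphoid and 2.60% of plasma barcodes. Barcodes above the line were therefore mainly epithelial, and in WT the largest groups among them were other epithelial (2982) and enterocyte-like (1075).

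Because a rising mt- share lowers every nuclear gene in CPM, the 2 sides of the line were compared per 1000000 UMIs outside the mt- genes, written here as non-mt CPM. On that scale the nuclear sum of WT epithelium was 63996 at most 25% and 31395 above it, a ratio of 0.491 (0.488 to 0.493). There 58 of 75 nuclear members were lower above the line and 0 higher, where 17.0% of all genes were lower and 37.7% higher. Complex IV had the lowest ratio, 0.391. In WT enterocyte-like barcodes the sum was 82029 and 35808 (ratio 0.437), with 59 of 74 lower and 0 higher, beside 13.3% and 45.4% of all genes. The members did not move evenly: Cox8a stood at 3405 and 809.8 non-mt CPM in these enterocyte-like barcodes (ratio 0.238) and Uqcrh at 1758 and 507.3, while Atp5e stood at 2079 and 1038 and Cox7a2l at 195.9 and 180.5 (ratio 0.921).

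In Lkb1_Het epithelium the nuclear sum was 41184 non-mt CPM at most 25% and 30533 above it (ratio 0.741), with 16 of 75 members lower and 1 (Cox7a1) higher, beside 5.45% and 25.6% of all genes. Its surface mucous-like barcodes had a ratio of 0.688, with 28 of 74 members lower and 0 higher (5.56% and 34.8% of all genes), and its gland-like barcodes 0.765, with 13 of 73 lower and 0 higher (4.03% and 13.6%). Its other epithelial barcodes had a ratio of 0.716, with 21 of 74 lower and 0 higher (8.13% and 16.2%). In T or innate lymphoid barcodes the 2 sides differed by little: the ratio was 0.982 (0.937 to 1.03) in WT and 0.951 (0.898 to 1.01) in Lkb1_Het, from 28 and 27 barcodes above the line, with 2 of 74 higher and 2 lower in WT (3.59% and 1.15% of all genes) and 0 of 73 higher and 2 lower in Lkb1_Het (2.15% and 0.966%). The remaining WT classes went both ways. WT other epithelial barcodes had a ratio of 0.524, with 60 of 74 members lower and 0 higher (19.2% and 31.7% of all genes), and goblet-like barcodes one of 0.652, with 26 of 73 lower and 0 higher (6.82% and 8.83%). Paneth-like barcodes, filled with a few very abundant antimicrobial transcripts, had a ratio of 2.07, with 31 of 57 higher and 0 lower (46.0% and 11.1%). Acinar barcodes, likewise filled with digestive enzyme transcripts, had a ratio of 2.36, with 29 of 72 higher and 0 lower (28.4% and 1.66%).

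Above the line the 2 libraries' epithelial nuclear sums lay close, at 31395 non-mt CPM in WT and 30533 in Lkb1_Het (ratio 0.973). Of 74 members 10 were higher in the polyp library, among them Atp5g2 (345.9 and 551.7 non-mt CPM, ratio 1.60) and Cox6c (758.5 and 1202), and 17 lower, among them Uqcrc1 (422.4 and 141.2, ratio 0.334) and Cox7a1 (97.2 and 5.80), beside 21.3% and 28.6% of all genes. Members differed in whether the direction below the line held above it, in other barcodes of the same 2 libraries. Cox7a1 and Uqcrc1 were lower and Atp5g2 had a ratio over 1 on both sides, whereas Ndufb9 and Cox6c were called lower below the line and higher above it (Ndufb9 at 329.2 and 505.7 non-mt CPM, ratio 1.54). Cox8a and Uqcrh, inside 1.5-fold below the line, had ratios of 1.86 and 1.81 above it. The mt- share moved with another feature: the median share of ribosomal RNA repeat genes among UMIs outside the mt- genes went from 13.7% to 17.3% in WT epithelium, 3.26% to 14.2% in Lkb1_Het epithelium and 0.688% to 10.8% in WT enterocyte-like barcodes. With these repeat UMIs left out of the denominator the ratios were 0.558, 0.827 and 0.475.

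Divided more finely, WT enterocyte-like barcodes stood at 89585 non-mt CPM at a share of 0 to 5%, 86435 at 5 to 10%, 78048 at 10 to 25%, 49503 at 25 to 40%, 34323 at 40 to 50% and 28098 at 50 to 60%. From 60 to 70% the level was 26842, and in the 60 and 31 barcodes of the last 2 bands it was 34395 and 36694. The largest step thus lay between the bands on either side of the 25% line. Median depth fell across that step from 21420 UMIs at 10 to 25% to 4543 UMIs at 25 to 40%, and the part of depth was not tested. WT epithelium as a whole did not fall steadily with the share. Its level was 39660 at 0 to 5% (431 barcodes, median 770 UMIs), 69808 at 5 to 10%, 66298 at 10 to 25% and 36914 at 25 to 40%.

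**Figure D5:**
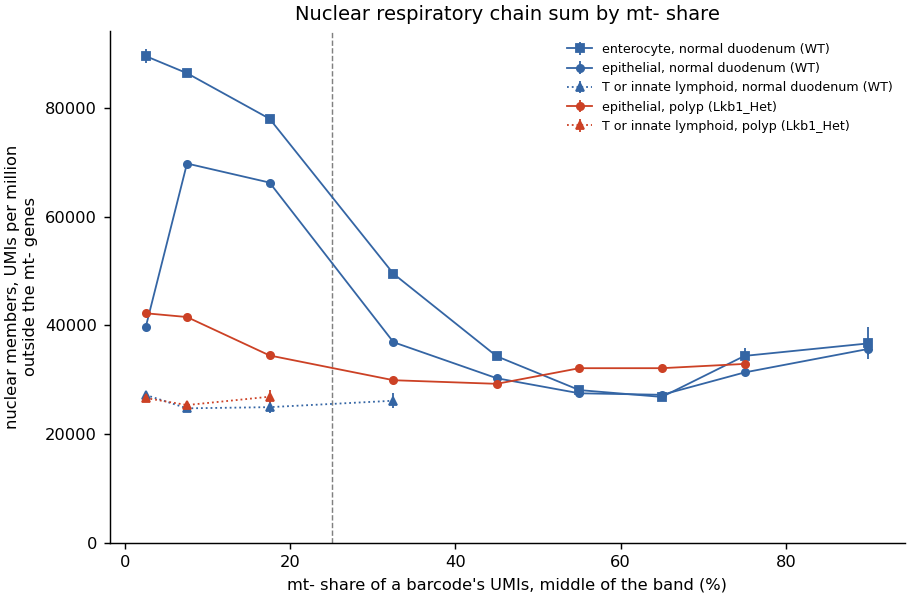
Summed nuclear members in non-mt CPM, UMIs per 1000000 outside the mt- genes (y axis), against the mt- share of a barcode's UMIs at the middle of each band (x axis, %), with 95% Poisson intervals and a dashed line at 25%. WT enterocyte-like barcodes go from 89585 to 26842 and end at 36694, while T or innate lymphoid barcodes stay between 24741 and 27212 in both libraries.

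Other genes of energy metabolism, taken from lists of pathway members, can be set beside the members in epithelium at most 25% mt- UMIs. Of all genes there, 19.6% were lower and 26.7% higher. Complex II, which feeds electrons from succinate, was lower in 4 of 4, with Sdhb at 400.3 and 153.3 CPM. Electron carriers and their partners were lower in 5 of 6, with cytochrome c (Cycs) at 1145 and 574.6 CPM and cytochrome c1 (Cyc1) at 511.4 and 212.0 CPM. Enzymes of the citric acid cycle were lower in 11 of 14 and higher in 0, with malate dehydrogenase Mdh2 at 1357 and 276.5 CPM and citrate synthase Cs at 154.2 and 75.3 CPM. Glycolysis genes were lower in 9 of 14 and higher in 2, with Ldha at 922.2 and 275.1 CPM and Gapdh at 2050 and 1077 CPM. Lower levels were thus not limited to the mitochondrial enzymes. These values include the enterocyte-like barcodes, and the lists were not counted without them. In gland-like barcodes (33 in WT) complex II was higher in 3 of 4, the citric acid cycle in 7 of 14 and glycolysis in 4 of 14. Only 1 of these genes, in glycolysis, was lower there, beside 14.8% of all genes higher and 3.68% lower. In surface mucous-like barcodes (25 in WT) these lists had 0, 0 and 1 higher and 0, 3 and 4 lower, beside 8.27% and 4.89%.

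Lists of genes that build or regulate the chain lay nearer, in epithelium, to the shares of all genes there, 19.6% lower and 26.7% higher. Assembly factors were lower in 14 of 45 and higher in 2, and genes of mitochondrial DNA expression lower in 8 of 27 and higher in 2, with Tfam, which packages and transcribes mitochondrial DNA, at 38.7 and 19.6 CPM. Prorp, the gene of that list with the most UMIs, went the other way, at 52.6 and 238.3 CPM (ratio 4.53). Regulators of mitochondrial biogenesis were lower in 2 of 11 and higher in 2, with Ppargc1a, a coactivator of respiratory genes, at 12.4 and 13.9 CPM and Ppargc1b at 21.6 and 10.0 CPM. Targets of the hypoxia-induced factor HIF were higher in 2 of 10 and lower in 3, so these last lists had calls close to the share of all genes. The median log2 ratio was -0.83 for complex II, -0.98 for the citric acid cycle and -0.95 for glycolysis. It was -0.48 for mitochondrial DNA expression, -0.34 for assembly factors and -0.12 for regulators, against 0.09 for all genes.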

How the data were processed

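The data were 2 single-cell RNA libraries, 1 per group, each deposited as a barcode-by-gene matrix of counts. The counts are whole UMIs per gene and barcode that the authors deposited without normalization. The submitters' processing notes name Cell Ranger 3.0.0 and the build mm10, whereas per the file headers the matrices were written by software version 5.0.0; the annotation release is not given in the sources used here. Whether the overlapping mt- genes were counted by strand is not given either.

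Barcodes with at least 500 UMIs and 250 genes were kept. Those with marker UMIs (at least 3, from at least 2 markers, 2 times the next list) were placed in 15 lineages and epithelial barcodes in 11 subclasses; acinar, plasma and erythroid barcodes were set by their marker share because their RNA was also found free. Barcodes with markers of several lineages (87 in WT and 635 in Lkb1_Het) or of none (480 and 1314) entered no class. Scrublet called 0 doublets in both libraries, so its calls were not used, and removing the 487 and 1135 highest scores was an alternative. UMIs were summed per class and library, and given per 1000000 UMIs (CPM) or per 1000000 UMIs outside the mt- genes, with exact Poisson intervals and, for ratios, exact conditional binomial intervals (95%). A call needed 1.5-fold, an interval clear of 1 and 20 UMIs, and the same call was applied to all genes of a class. Intervals treat UMIs as independent and cover counting error only. With 1 library per group no p-value was computed, and cells were not used as replicates. Medians of log2 ratios used 0.5 UMIs as pseudocount.

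Members and lists were chosen with earlier results of these data known. Named were all mt- members, the nuclear members with at least 50 UMIs ranked by the interval end nearest 1 (up to 5 per direction and class), the complex IV isoforms with their partners, the highest member of each complex, and members of other lists with most UMIs; a few more (such as Atp5b, Ndufs1, Uqcrb, Tfam and Cs) were named for their role after their values were seen. A gene that the rule names is counted but not reported here by name. Motifs were searched in RefSeq promoters (GRCm38.p6), and no coordinates were taken from the authors' files. The call was tested on simulated counts for epithelium (14235 genes, 200 changed). It found 44.8% of genes changed 1.5-fold, 91.0% at 2-fold, 100.0% at 4-fold and 1.11% of unchanged genes. The counts were drawn with counting error only, as the intervals assume, at the depth of the epithelial class. The simulation therefore does not cover variation between mice or libraries, nor the smaller classes. Python 3.11.15, numpy 2.4.6, pandas 2.3.3, scipy 1.17.1, scanpy 1.11.5 and matplotlib 3.10.9 were used.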

Additional observations from a re-analysis of the deposited data

How the results depend on the processing

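Alternatives to the ratios across the 25% line were run for epithelial and T or innate lymphoid barcodes of both libraries. They were also run for WT enterocyte-like and for Lkb1_Het surface mucous-like and gland-like barcodes. The other epithelial, goblet-like, Paneth-like and acinar ratios were not tried. Of the ratios tried, none with an interval clear of 1 reversed under an alternative. The Lkb1_Het T ratio, whose interval included 1, went from 0.951 to 1.01 in one. Counts of members were compared by size and not by direction. In some classes the balance of higher and lower changed, as given below. No paired analysis was possible because each group had 1 library, and for the same reason no replicate could be left out. The limits are a single library per group, WT classes of 12 to 33 barcodes (enteroendocrine, surface mucous, gland, macrophage, fibroblast, smooth muscle), free RNA, and a depth at which members under 20 UMIs in a class were not tested. Counts of nuclear members moved by over 1.5 times in 44 of 190 comparisons with an alternative and counts of mitochondrial members in 44 of 174, and the cause was not tested. Below, higher and lower mean in the polyp library. No share of all genes was at hand under these alternatives, apart from leaving out enterocyte-like barcodes. The other counts therefore cannot be set against all genes.

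Past 2-fold, nuclear counts were gland 10 higher, enteroendocrine 2 higher and 5 lower, epithelial 7 lower, fibroblast 3 higher, macrophage 2 higher, plasma 3 higher, surface mucous 0 higher and 0 lower. Mitochondrial counts were gland 0 and 0, T 0 higher, enteroendocrine 2 lower, epithelial 6 lower, fibroblast 0 higher, macrophage 1 higher, plasma 0 and 0, surface mucous 0 lower. Centred on the median gene, nuclear counts were gland 15 higher, enteroendocrine 8 higher, macrophage 2 higher and 2 lower, plasma 1 higher and 4 lower, surface mucous 4 higher. Mitochondrial counts were gland 0 higher and 2 lower, T 2 higher, plasma 0 higher and 6 lower, surface mucous 2 lower. As means of per-barcode CPM with no interval, nuclear counts were gland 2 lower, enteroendocrine 13 higher, epithelial 23 lower, fibroblast 2 lower, macrophage 20 higher and 9 lower, plasma 5 higher and 4 lower, surface mucous 38 higher and 4 lower. Mitochondrial counts were gland 2 higher and 0 lower, T 0 higher and 1 lower, enteroendocrine 1 higher and 2 lower, epithelial 7 lower, macrophage 1 higher, plasma 0 higher and 3 lower, surface mucous 5 higher.

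With no limit on the mt- share, nuclear counts were epithelial 3 higher and 8 lower and surface mucous 12 higher. Mitochondrial counts were gland 0 higher and 5 lower, T 3 higher, enteroendocrine 13 lower, fibroblast 0 higher, macrophage 5 higher, surface mucous 6 lower. Cox7a1 then stood at 275.5 CPM in WT enterocyte-like and 139.5 CPM in WT epithelial barcodes. At most 10% mt- UMIs gave 0 gland nuclear members lower, mitochondrial counts of T 0 higher, enteroendocrine 0 lower, epithelial 7 lower, fibroblast 0 higher and surface mucous 1 higher, and Cox7a1 at 463.8 and 209.5 CPM. The stricter marker rule gave nuclear counts of gland 0 lower, T 3 higher, enteroendocrine 7 lower and macrophage 2 lower, mitochondrial counts of T 3 higher and surface mucous 1 higher, Cox7a1 at 482.9 CPM in WT enterocyte-like barcodes and Cox6b2 at 6.44 CPM in WT fibroblasts. Removing the highest scrublet scores gave nuclear counts of T 5 lower and plasma 11 higher, and mitochondrial counts of gland 0 higher and T 2 higher. At least 1000 UMIs gave gland 0 lower and macrophage 2 lower nuclear members, no minimum per gene gave macrophage 2 lower, and a minimum of 50 UMIs gave gland 0 lower and plasma 0 lower. Of the alternatives chosen after seeing the data, leaving out enterocyte-like barcodes gave 7 epithelial nuclear members lower, and leaving out barcodes over 10% ribosomal repeat UMIs gave gland 0 lower and macrophage 2 lower nuclear members and T 2 higher mitochondrial members.

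The mt- share of UMIs in WT and Lkb1_Het was 28.6% and 12.8% over all barcodes, 25.8% and 10.7% at 1000 UMIs or more, and 34.3% and 19.6% as a mean over barcodes. The nuclear ratio above over at most the line, in WT epithelial, WT enterocyte-like, Lkb1_Het epithelial, surface mucous and gland barcodes, was 0.761, 0.691, 0.784, 0.760 and 0.786 with the line at 10%, 0.495, 0.380, 0.794, 0.664 and 0.883 at 50%, 0.597, 0.423, 0.846, 0.740 and 0.872 as means over barcodes, and 0.261, 0.242, 0.410, 0.406 and 0.451 in CPM over all UMIs. The T ratios were 0.665 in WT and 0.615 in Lkb1_Het in CPM over all UMIs, and 1.01 in Lkb1_Het as a mean over barcodes. With ribosomal repeat UMIs left out, chosen after seeing the data, the 5 ratios were 0.558, 0.475, 0.827, 0.738 and 0.843. At 1000 UMIs or more the epithelial ratios were 0.484 in WT and 0.736 in Lkb1_Het, and at 500 UMIs outside the mt- genes the Lkb1_Het one was 0.731.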
